A study of Mus musculus with 24 samples.

Results

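The 35 genes described here are immediate early genes, the genes that neurons and other cells switch on within minutes of a stimulus and that need no new protein synthesis for their induction. They were taken by symbol from a fixed list of 35 names. All 35 had exactly 1 probe set with that symbol alone on the array, out of 19937 genes measured. Whole hypothalamus came from male BPH/2J mice, a hypertensive inbred strain, and male BPN/3J mice, the normotensive strain used as its control, at 6 weeks and at 26 weeks of age. Each of the 4 groups held 6 mice, and each array carried the RNA of 1 mouse collected at the daily blood pressure peak under standard housing, with no drug or engineered allele. Values are log2 intensities, so a difference of 1 is a doubling. Each test sets a group difference against its standard error (SE), which rests on the spread between mice and on their number.

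Stimulation of a neuron raises calcium and activates kinases of the ERK, RSK and CaMK pathways, which phosphorylate CREB and the SRF partner Elk1 on DNA elements close to these genes. The first products are transcription factors of the AP-1, Egr, Nr4a and Klf families, followed by growth-arrest proteins, phosphatases that shut the ERK pathway off again, and proteins that act at the synapse. Because the transcripts are short-lived, the level of Fos in a brain region is widely used as a record of how active its cells were in the period before death. In the hypothalamus Fos is used to map neurons that respond to salt, stress, feeding and light.

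The DNA in front of Fos and of 3 of the members with the highest correlation with it between mice is shown, since their values across animals are described further on. Egr1, which was also among the closest, is not shown. RefSeq promoter windows of assembly GRCm38.p6 were at hand for 27 of the 35 members. They run from 250 bases before to 50 bases after the gene start, and the part before the start is printed 5′ to 3′ on the gene strand. The printed stretches are chr12:85473640-85473889 (plus strand) for Fos, chr15:101266596-101266845 (plus strand) for Nr4a1, chr10:99262981-99263230 (plus strand) for Dusp6 and chr17:26508473-26508722 (minus strand) for Dusp1. Capitals mark exact matches, on either strand, to the CREB-binding element TGACGTCA, to its core TGACG or to the EGR element GCGNGGGCG.
Fos: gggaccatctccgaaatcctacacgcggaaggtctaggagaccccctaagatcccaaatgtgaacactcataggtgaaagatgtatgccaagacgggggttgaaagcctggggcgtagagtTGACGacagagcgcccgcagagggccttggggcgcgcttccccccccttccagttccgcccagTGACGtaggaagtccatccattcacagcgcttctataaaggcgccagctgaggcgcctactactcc
Nr4a1: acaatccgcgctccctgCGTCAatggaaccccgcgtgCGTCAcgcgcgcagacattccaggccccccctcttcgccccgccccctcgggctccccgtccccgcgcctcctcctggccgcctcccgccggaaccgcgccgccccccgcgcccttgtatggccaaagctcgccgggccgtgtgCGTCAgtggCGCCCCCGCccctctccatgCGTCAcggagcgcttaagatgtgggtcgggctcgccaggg
Dusp6: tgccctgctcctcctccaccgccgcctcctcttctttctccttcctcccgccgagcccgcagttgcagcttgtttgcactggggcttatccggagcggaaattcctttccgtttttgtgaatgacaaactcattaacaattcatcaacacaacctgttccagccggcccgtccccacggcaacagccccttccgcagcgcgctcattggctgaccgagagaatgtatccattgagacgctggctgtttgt
Dusp1: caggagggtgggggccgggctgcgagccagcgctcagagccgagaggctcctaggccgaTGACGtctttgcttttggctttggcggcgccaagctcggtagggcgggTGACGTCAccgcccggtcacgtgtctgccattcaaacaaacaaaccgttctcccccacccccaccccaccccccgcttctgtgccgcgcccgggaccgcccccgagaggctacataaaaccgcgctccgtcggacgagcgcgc
The Fos stretch held the core TGACG at positions -129 and -66, counted from the gene start. Nr4a1 held the core, read on the other strand as CGTCA, at -233, -213, -69 and -40, and an EGR element at -60. Dusp1 held the full CREB element at -143 and another core at -191, and these letters were not found in the Dusp6 stretch. The core TGACG, which is contained in the full element, was present in 22 of the 40 windows of members (19 of 27 members) and in 20.8% of all 32851 promoter windows. The full element was in 7.5% of member windows (3 members: Maff, Btg2 and Dusp1) and in 1.79% of all windows. The EGR element was in 22.5% of member windows (9 members) and 5.55% of all windows. The CArG box of SRF was in 12.5% of member windows (2 members, Egr2 and Dusp5) and 1.63% of all windows. The AP-1 element TGANTCA was in 2.5% of member windows (1 member, Bdnf) and 7.81% of all windows. A match is a description of the letters and shows no binding.

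Markers of neighbouring tissue differed between groups and single mice and are given beside the results they touch. The mean of 16 thalamus markers was 8.43 ± 0.56 in the 6-week BPH/2J mice and 9.37 ± 0.12, 9.38 ± 0.09 and 9.39 ± 0.24 (SD, n = 6 each) in the 6-week BPN/3J, 26-week BPH/2J and 26-week BPN/3J mice. Within the 6-week BPH/2J group, replicate 2 had a thalamus mean of 9.30 and the others ranged from 7.78 to 8.67. At 6 weeks 7 of 11 oligodendrocyte markers were called lower in BPH/2J, and 0 of 11 had a positive difference (median -0.55). With age in BPN/3J 6 of 11 were called lower and 2 had a positive difference (median -0.48). The mean of the 14 measured hypothalamus markers was 8.18, 7.50, 7.74 and 7.33 in the same order, so the labelled tissue was present in every group beside thalamus. The mean of the cortex and striatum markers was 8.39 in replicate 3 of the 26-week BPH/2J mice and 8.26 in replicate 4 of the 26-week BPN/3J mice, against 7.44 to 7.74 in the other 22 arrays. The mean of 9 choroid plexus markers was 6.07 ± 0.33 and 5.88 ± 0.12 in the 6-week BPH/2J and BPN/3J mice and 6.42 ± 0.87 and 6.84 ± 1.10 (SD, n = 6 each) in the 26-week BPH/2J and BPN/3J mice. It ran from 7.13 to 8.28 in 5 of the 26-week mice (BPH/2J replicates 3 and 4, BPN/3J replicates 2, 3 and 4) and from 5.68 to 6.57 in the other 19 mice. With age in BPN/3J 9 of 9 choroid plexus markers were higher (median 0.80, 2 called), and at 26 weeks 9 of 9 were lower in BPH/2J (median -0.40, 0 called and 2 at an unadjusted p under 0.05). The 26-week arrays also fell into 2 sets by their genes outside the member list: the smaller set held BPH/2J replicates 5 and 6 and BPN/3J replicates 3, 5 and 6, with replicate 3 near the border. The labels name no batch for these sets. In such bulk tissue, fewer cells of a type and less RNA per cell cannot be told apart.

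Few immediate early genes were called between the strains or with age. At 6 weeks 2 of 35 members were lower in BPH/2J and 0 were higher, with 7.42% of all genes called (4.42% lower, 2.99% higher). At 26 weeks 1 member was lower and 0 were higher, with 2.67% of all genes called (1.34% lower, 1.32% higher). Between 6 and 26 weeks 3 members rose and 0 fell in BPH/2J, with 16.9% of all genes called (8.23% up, 8.64% down). In BPN/3J 3 rose and 1 fell, with 12.3% of all genes called (4.6% up, 7.66% down). At an unadjusted p under 0.05 the members numbered 11 and 3 for strain at 6 and 26 weeks, against 18.1% and 12.5% of all genes, and for the age comparisons 10 in BPH/2J, against 31.6%, with 8 in BPN/3J, against 29.3%. A call is an adjusted p below 0.05 in limma, with Benjamini-Hochberg adjustment over all 19937 genes, and the shares of members called were near or below those of all genes in the strain and age comparisons. With the choroid plexus mean as a covariate 0 of the 4 BPN/3J age calls held, and 0.722% of all genes were called. With the thalamus mean as a covariate 0 of the 3 BPH/2J age calls held, and 0.0351% of all genes were called.

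**Figure D1:**
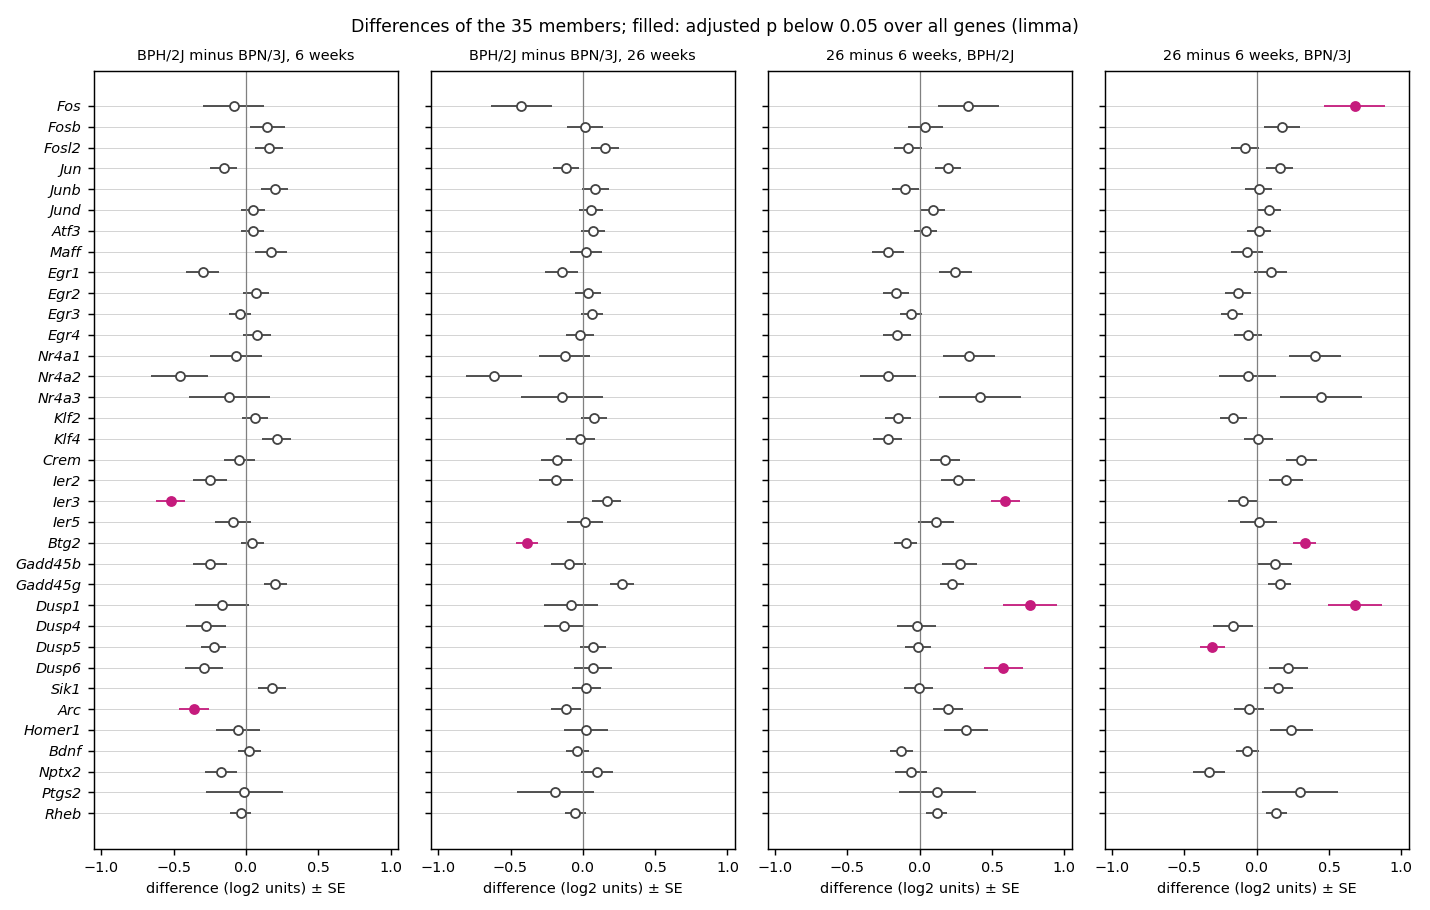
Differences of the 35 members in 4 comparisons, as log2 units with SE on the horizontal axes and 1 gene per row in order of role; filled points have a limma adjusted p below 0.05 over all genes. Filled points number 2, 1, 3 and 4 from left to right, and the other members lie between -0.62 and 0.45.

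No member passed for a strain difference that depended on age, where 0.0301% of all genes (6) were called, 0.00502% upward and 0.0251% downward. At an unadjusted p under 0.05 the interaction held 3 of 35 members, against 10.8% of all genes. The median member difference between the strains was -0.05 at 6 weeks and -0.02 at 26 weeks, with 0.01 over all genes at both ages. The median age difference of the members was 0.09 in BPH/2J and 0.08 in BPN/3J, and that of all genes was -0.03 in both strains. The age comparisons and the strain comparisons share samples, so their values are not independent of each other.

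Among the AP-1 genes and their partners, whose products pair to bind TGANTCA elements, 1 of 8 changed in any comparison. That gene was Fos, which rose with age in BPN/3J. In the 6-week BPN/3J mice its lowest, median and highest values were 6.13, 6.83 and 7.13, and in the 26-week BPN/3J mice they were 6.72, 7.36 and 8.15. The upper mice of the young group overlapped the lower mice of the adult group, and replicate 1 stood highest among the adults. The difference was 0.68 ± 0.21 (SE; limma adjusted p = 0.0367). The call was lost in 8 of the 24 fits that left out 1 array, namely 26-week BPN/3J replicates 1, 2, 3 and 4 and 6-week BPN/3J replicates 1, 2, 4 and 6, where the adjusted p reached 0.104. It was also lost with the cortex and striatum marker mean as a covariate (0.59, limma adjusted p = 0.0810) and without the 2 arrays highest in those markers (0.67, adjusted p = 0.0692). With the choroid plexus mean as a covariate it was 0.54 ± 0.23 (limma adjusted p = 0.261).

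In BPH/2J, Fos ran from 6.08 through a median of 6.53 to 7.06 at 6 weeks and from 6.35 through 7.02 to 7.39 at 26 weeks. These ranges overlapped widely, and the difference of 0.34 ± 0.21 did not pass (limma adjusted p = 0.281). Fos was -0.43 ± 0.21 in BPH/2J relative to BPN/3J at 26 weeks (limma adjusted p = 0.412) and -0.09 ± 0.21 at 6 weeks (adjusted p = 0.905). The age difference of Fos was not shown to differ between the strains (interaction -0.34 ± 0.30, limma adjusted p = 0.753).

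Junb, an AP-1 subunit that restrains Jun, had medians of 6.16 and 6.01 in BPH/2J and BPN/3J at 6 weeks, with ranges of 6.05 to 6.52 and 5.87 to 6.14. At 26 weeks the medians were 6.13 and 6.05. The groups overlapped, and the largest difference was 0.20 ± 0.09 at 6 weeks (limma adjusted p = 0.256). For Jun, the main partner of Fos, the age difference was 0.19 in BPH/2J and 0.16 in BPN/3J without a call. Fosb, Fosl2, Jund, Atf3 and Maff passed in no comparison, and their differences in the strain and age comparisons lay between -0.22 and 0.18. Maff had arrays at or below the median of the unnamed probe sets, so its range is compressed if the gene is lower still.

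**Figure D2:**
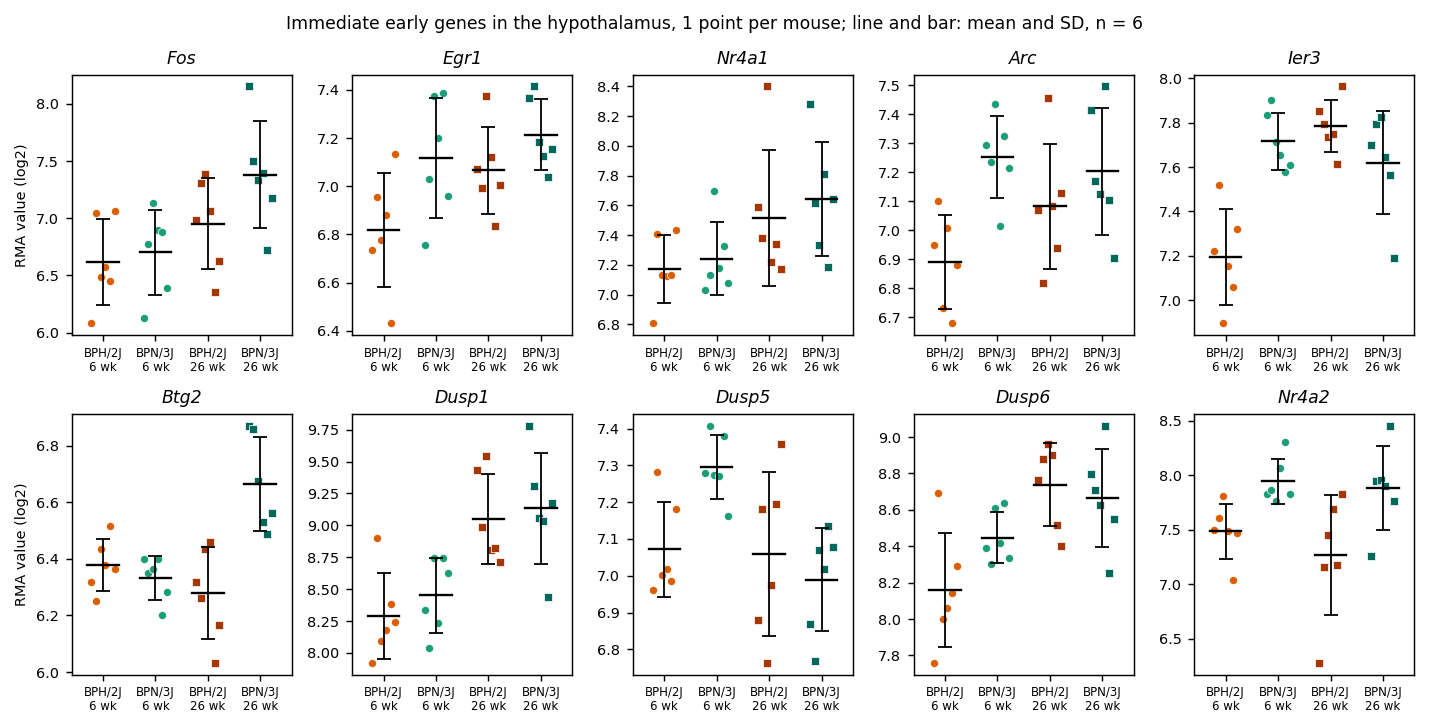
Log2 values of 10 members in every mouse, with 1 panel per gene, 1 point per mouse, the 4 groups on the horizontal axis and the mean and SD as line and bar. Ier3 is below all other groups' means in the 6-week BPH/2J mice, and Btg2 is above them in the 26-week BPN/3J mice.

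None of the 4 Egr zinc-finger factors, which bind GCGNGGGCG elements, changed in any comparison. Egr1, the most used activity marker after Fos, was lower in most 6-week BPH/2J mice, with 6.43, 6.83 and 7.13 as the lowest, median and highest values against 6.76, 7.12 and 7.39 in BPN/3J. The groups overlapped, and the difference of -0.30 ± 0.11 did not pass (limma adjusted p = 0.125). At 26 weeks the Egr1 medians were 7.04 in BPH/2J and 7.17 in BPN/3J, with a difference of -0.15 ± 0.11 (limma adjusted p = 0.675). Egr2, Egr3 and Egr4 differed between the strains by -0.04 to 0.08 at both ages.

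The Nr4a orphan nuclear receptors act without a known ligand and are induced with Fos. Nr4a1 spread most at 26 weeks, from 7.18 through a median of 7.36 to 8.40 in BPH/2J and from 7.19 through 7.63 to 8.28 in BPN/3J. At 6 weeks the values were 6.81, 7.13 and 7.43 in BPH/2J and 7.03, 7.16 and 7.70 in BPN/3J. Neither strain passed for age, with 0.34 ± 0.18 (limma adjusted p = 0.192) and 0.40 ± 0.18 (adjusted p = 0.135). Nr4a3 also had a wide spread, with SDs of 0.66 and 0.77 in the 26-week groups.

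Nr4a2 (Nurr1), which is also a lasting regulator of dopamine neurons, was the member with the largest strain difference at 26 weeks. Its values were 6.28, 7.32 and 7.83 in BPH/2J and 7.26, 7.92 and 8.46 in BPN/3J at that age, so 1 BPH/2J mouse, replicate 1, lay far below and the groups overlapped. The difference was -0.62 ± 0.20 (limma adjusted p = 0.105). With same-numbered 26-week arrays as a block it was called (-0.62 ± 0.14, limma adjusted p = 0.0133). It was also called without BPH/2J replicate 6 (-0.73, adjusted p = 0.0441) or BPN/3J replicate 1 (-0.74, adjusted p = 0.0365). At 6 weeks it was -0.46 ± 0.20 (limma adjusted p = 0.188), with medians of 7.49 and 7.85, and it was called when only the 6-week arrays were fitted (adjusted p = 0.0179).

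Of the Klf zinc-finger factors and Crem, whose short ICER products repress CREB targets, 0 of 3 changed. Crem was nearest to a call, with 0.31 ± 0.11 for age in BPN/3J (limma adjusted p = 0.0560). Its probe set is named by gene, and its isoforms were not told apart. Klf4 differed between the strains by 0.21 at 6 weeks (limma adjusted p = 0.251) and by -0.02 at 26 weeks.

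Ier3 and Btg2 had the clearest group differences of the list. Ier3 (IEX-1), a stress-induced protein that prolongs ERK signalling and affects cell survival, was lower in the 6-week BPH/2J mice than in the 6-week BPN/3J mice and than in the 26-week BPH/2J mice. Its values were 6.90, 7.19 and 7.52 (lowest, median, highest) in the 6-week BPH/2J mice and 7.58, 7.68 and 7.90 in the 6-week BPN/3J mice. At 26 weeks they were 7.61, 7.77 and 7.96 in BPH/2J and 7.19, 7.67 and 7.83 in BPN/3J. Every young BPH/2J mouse thus lay below every young BPN/3J mouse and every adult BPH/2J mouse, whereas the adult strains overlapped.

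For Ier3 the strain difference at 6 weeks was -0.52 ± 0.10 (limma adjusted p = 0.00135), and groups without overlap made up 5.44% of all genes. The age difference in BPH/2J was 0.59 ± 0.10 (limma adjusted p = 0.000459), where 4.05% of all genes had no overlap. The interaction of 0.68 ± 0.14 had an adjusted p of 0.0597 in limma, and 0.0447 with same-numbered 26-week arrays as a block. It was called without 6-week BPH/2J replicate 2 (0.75, limma adjusted p = 0.00293). With the thalamus mean as a covariate the interaction was 0.53 ± 0.18 (limma adjusted p = 0.999). The thalamus markers themselves had a positive interaction in 16 of 16 (median 0.95, 0 called, 14 at an unadjusted p under 0.05). None of the 24 fits that left out 1 array ended either the strain or the age call. The thalamus marker mean moved with both comparisons. As a covariate it left -0.37 ± 0.15 for the strain difference (limma adjusted p = 0.520) and 0.43 ± 0.15 for the age difference (adjusted p = 0.383). Both SEs were larger than without it. Replicate 2, whose thalamus mean was 9.30, had the highest Ier3 value of its group (7.52), and without it the strain difference was -0.59.

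Btg2, an antiproliferative protein that promotes mRNA deadenylation, was higher in the 26-week BPN/3J mice. Its values there were 6.49, 6.62 and 6.87, against 6.03, 6.29 and 6.46 in the 26-week BPH/2J mice and 6.20, 6.36 and 6.40 in the 6-week BPN/3J mice. The adult BPN/3J mice overlapped neither of those groups. The strain difference at 26 weeks was -0.39 ± 0.08 (limma adjusted p = 0.00366), and 1.75% of all genes had groups without overlap there. When the 6-week arrays were left out of the fit it was not called (-0.39 ± 0.10, limma adjusted p = 0.0736).

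The age difference of Btg2 in BPN/3J was 0.33 ± 0.08 (limma adjusted p = 0.0106), with 4.57% of all genes without overlap in that comparison. In BPH/2J it was -0.10 ± 0.08 (limma adjusted p = 0.405). The interaction was -0.43 ± 0.11 (limma adjusted p = 0.0881), and was called with same-numbered 26-week arrays as a block (adjusted p = 0.0447) and without 6-week BPH/2J replicate 2 (-0.46, adjusted p = 0.0268). With the thalamus mean as a covariate the interaction was -0.40 ± 0.14 (limma adjusted p = 0.999). The thalamus means of the 26-week groups were 9.38 and 9.39, and with that mean as a covariate the 26-week strain difference was -0.39 (limma adjusted p = 0.00445). The choroid plexus means moved with both comparisons (6.42 and 6.84 at 26 weeks, 5.88 at 6 weeks in BPN/3J). With that mean as a covariate the strain difference at 26 weeks was -0.35 ± 0.07 (limma adjusted p = 0.00462), and the age difference in BPN/3J was 0.24 ± 0.08 (adjusted p = 0.143).

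Of the other growth-arrest and Ier genes, Gadd45g, which binds the MAP3K MEKK4, was higher in BPH/2J at 26 weeks by 0.27 ± 0.08 without a call (limma adjusted p = 0.0859). It was called with same-numbered 26-week arrays as a block (adjusted p = 0.0213) and without BPN/3J replicate 1 (0.31, adjusted p = 0.0426) or replicate 2 (0.31, adjusted p = 0.0425), and with the choroid plexus mean as a covariate (0.30, adjusted p = 0.0408). Its medians were 8.18 and 7.93 at 26 weeks and 7.97 and 7.80 at 6 weeks, in BPH/2J and BPN/3J. Gadd45b, Ier2 and Ier5 passed in no comparison, and Ier2 and Gadd45b were -0.25 each between the strains at 6 weeks.

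The list holds 4 dual-specificity phosphatases, which remove the phosphates that activate MAP kinases. Dusp1 and Dusp6 were called higher with age in BPH/2J, where 16.9% of all genes were called (8.23% up). In BPN/3J Dusp1 was called higher and Dusp5 lower, where 12.3% of all genes were called (4.6% up, 7.66% down). Dusp1, the nuclear phosphatase of p38, JNK and ERK, rose in both strains. In BPH/2J its values were 7.92, 8.21 and 8.90 at 6 weeks and 8.71, 8.91 and 9.54 at 26 weeks. In BPN/3J they were 8.04, 8.48 and 8.74 at 6 weeks and 8.44, 9.12 and 9.78 at 26 weeks. In BPH/2J only replicate 2 of the young mice reached into the adult range.

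The age difference of Dusp1 was 0.76 ± 0.19 in BPH/2J (limma adjusted p = 0.00707) and 0.68 ± 0.19 in BPN/3J (adjusted p = 0.0219). No array ended the BPH/2J call when left out, and 26-week BPN/3J replicates 1 and 2 and 6-week BPN/3J replicate 2 each ended the BPN/3J call (highest adjusted p 0.0608). With the thalamus mean as a covariate the difference was 0.10 in BPH/2J (limma adjusted p = 0.917) and 0.67 in BPN/3J (adjusted p = 0.0102). The thalamus mean was nearly equal at both ages in BPN/3J (9.37 and 9.39). With the choroid plexus mean as a covariate the difference was 0.73 in BPH/2J (limma adjusted p = 0.0108) and 0.59 in BPN/3J (adjusted p = 0.173). The strains differed in Dusp1 by -0.16 ± 0.19 at 6 weeks and -0.08 ± 0.19 at 26 weeks, without a call.

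Dusp6, the cytoplasmic ERK phosphatase, rose with age in BPH/2J from 7.76, 8.10 and 8.69 to 8.40, 8.82 and 8.96. The difference was 0.58 ± 0.13 (limma adjusted p = 0.00432), and young replicate 2, with 8.69, overlapped the adults. With the thalamus covariate it was 0.06 (limma adjusted p = 0.925). In BPN/3J Dusp6 differed with age by 0.22 ± 0.13 (limma adjusted p = 0.276).

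Dusp5, the nuclear ERK-specific phosphatase, fell with age in BPN/3J from 7.16, 7.28 and 7.41 to 6.77, 7.04 and 7.13, with no overlap. The difference was -0.31 ± 0.09 (limma adjusted p = 0.0260). It was lost without 26-week BPN/3J replicates 1, 2 or 4 or 6-week BPN/3J replicates 2 or 5 (highest adjusted p 0.0764), and with the cortex and striatum mean as a covariate (-0.27, limma adjusted p = 0.0589). With the choroid plexus mean as a covariate, a mean that was 5.88 at 6 weeks and 6.84 at 26 weeks in BPN/3J, it was -0.19 ± 0.09 (limma adjusted p = 0.287). In BPH/2J Dusp5 differed by -0.01 ± 0.09 with age. Dusp4 and Sik1, a kinase that keeps the CREB coactivators out of the nucleus, passed in no comparison.

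Among the proteins that act at synapses or are secreted, 1 of 6 differed. Arc, which drives removal of AMPA receptors from the synapse, was lower in BPH/2J at 6 weeks. Its values were 6.68, 6.91 and 7.10 in BPH/2J and 7.01, 7.27 and 7.44 in BPN/3J, so only the lowest BPN/3J mouse fell within the BPH/2J range. The difference was -0.36 ± 0.10 (limma adjusted p = 0.0301). The call was lost without BPH/2J replicates 3, 5 or 6 or BPN/3J replicates 1, 3 or 5 (highest adjusted p 0.0872). It was also lost with the thalamus covariate (-0.30 ± 0.16, limma adjusted p = 0.799), where the SE was larger than without it. At 26 weeks the Arc values were 6.82, 7.08 and 7.46 in BPH/2J and 6.91, 7.15 and 7.50 in BPN/3J, which overlapped (-0.12 ± 0.10, limma adjusted p = 0.730).

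Bdnf, the neurotrophin whose transcription is a standard readout of CREB activity, was level in all groups. Its medians were 6.70 and 6.68 at 6 weeks and 6.54 and 6.59 at 26 weeks, in BPH/2J and BPN/3J, and every difference was within 0.13 of 0 without a call. Nptx2 (Narp), which clusters AMPA receptors, was nearest to a call with -0.33 ± 0.11 for age in BPN/3J (limma adjusted p = 0.0508). It was called with only the compared groups in the fit (adjusted p = 0.0336), with robust limma (0.0451) and with the thalamus covariate (-0.34, adjusted p = 0.0173). With the choroid plexus mean as a covariate 0 members were called in that comparison. Homer1, a scaffold of metabotropic glutamate receptors, and the mTOR activator Rheb passed in no comparison, and isoforms of Homer1 were not told apart. Ptgs2 (COX-2) lay between 5.09 and 5.63 in 22 of 24 mice, and reached 6.28 and 7.59 in the pair of mice with the high cortex and striatum marker means.

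Members varied more between mice of the same group than genes in general. The median SD of the members was 0.18, 0.13, 0.20 and 0.23 in the 6-week BPH/2J, 6-week BPN/3J, 26-week BPH/2J and 26-week BPN/3J mice, against 0.14, 0.10, 0.16 and 0.18 over all genes. Of the 35 members, 23, 24, 26 and 26 were above the median gene of the group. Fos had the highest SD of the members in both 6-week groups (0.38 and 0.37), Nr4a3 in the 26-week BPH/2J mice (0.66) and Ptgs2 in the 26-week BPN/3J mice (0.93).

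Mice of a group differed in how many members they led or trailed. The same counts were not made over all genes. The numbers given here thus do not set the members apart from arrays that deviate in many genes. In the 26-week BPH/2J group replicate 3 was highest of 6 for 16 of 35 members, among them Fos, Fosb, Junb, Egr1, Nr4a1, Nr4a3, Dusp1, Arc, Homer1 and Ptgs2. This is the mouse with a cortex and striatum marker mean of 8.39. In the 26-week BPN/3J group replicate 4, with a mean of 8.26, was highest for 10 members, with Nr4a3 at 7.76, Homer1 at 8.70 and Arc at 7.50. Replicate 1 of that group, with a cortex and striatum mean of 7.69, was above the group mean for 28 members and highest for 11, including Fos and Nr4a1.

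Among the younger mice, replicate 6 of BPH/2J was highest for 15 members and replicate 3 of BPN/3J for 14. Their cortex and striatum means were 7.61 and 7.55 and their thalamus means 8.59 and 9.35. At the other end, replicate 6 of the 26-week BPN/3J mice was lowest for 16 members and replicate 5 of the 26-week BPH/2J mice for 14. Both belong to the smaller set of 26-week arrays.

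**Figure D3:**
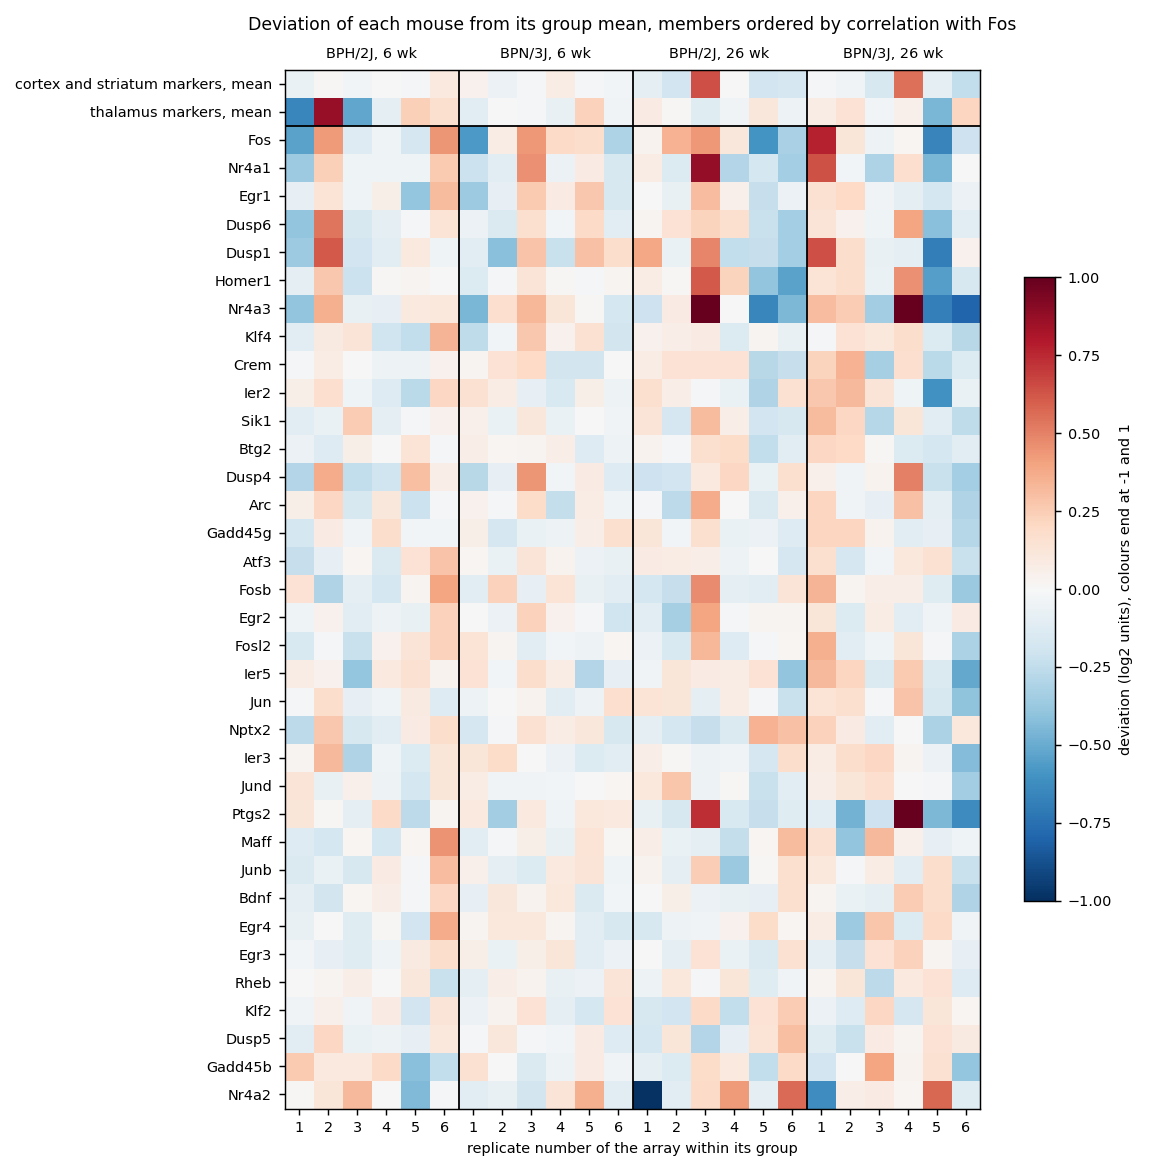
Deviation of each mouse from its group mean in log2 units, with 1 row per member in order of correlation with Fos, 1 column per mouse in blocks by group, and 2 marker means on top; red is above and blue below the group mean, and colours end at -1 and 1. In replicate 3 of the 26-week BPH/2J mice 25 of 35 members are above the group mean, in upper and in lower rows. The order by correlation itself places the rows most like Fos at the top.

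Deviations from the group means showed which members moved with Fos from mouse to mouse. The median correlation of the other 34 members with Fos was 0.33 over 24 mice, against 0.002 over all genes, and 30 of 34 were above 0 against 50.3% of all genes. A correlation of 0.5 or more was reached by 8 members and by 6.62% of all genes. These were Nr4a1 (r = 0.76), Egr1 (0.76), Dusp6 (0.75), Dusp1 (0.68), Homer1 (0.67), Nr4a3 (0.66), Klf4 (0.58) and Crem (0.57).

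Permuting mice within groups 100000 times gave two-sided p-values for each of the 34 correlations computed, and these 8 were below 0.05 after Benjamini-Hochberg adjustment over those 34. For Nr4a1 the permutation p was 6.0e-05, with Spearman's rho 0.76 (permutation p = 0.00010). For Egr1 it was 3.0e-05, with rho 0.82 (permutation p = 1.0e-05, the smallest that this number of permutations can give). Dusp6 had p = 0.00014 and rho 0.78 (permutation p = 7.0e-05), and Crem, the weakest of them, p = 0.00755 and rho 0.64 (permutation p = 0.00184). When the slope on Fos was fitted to all 19936 other genes with limma and adjusted over all of them, 0.0301% of genes (6) passed and 1 of 34 members was among them: Nr4a1, with 0.65 ± 0.12 log2 units per log2 unit of Fos (limma adjusted p = 0.0471). Egr1 and Dusp6 followed with an adjusted p of 0.0518 each. At an unadjusted p under 0.05, 12 of 34 members and 20.7% of all genes passed.

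**Figure D4:**
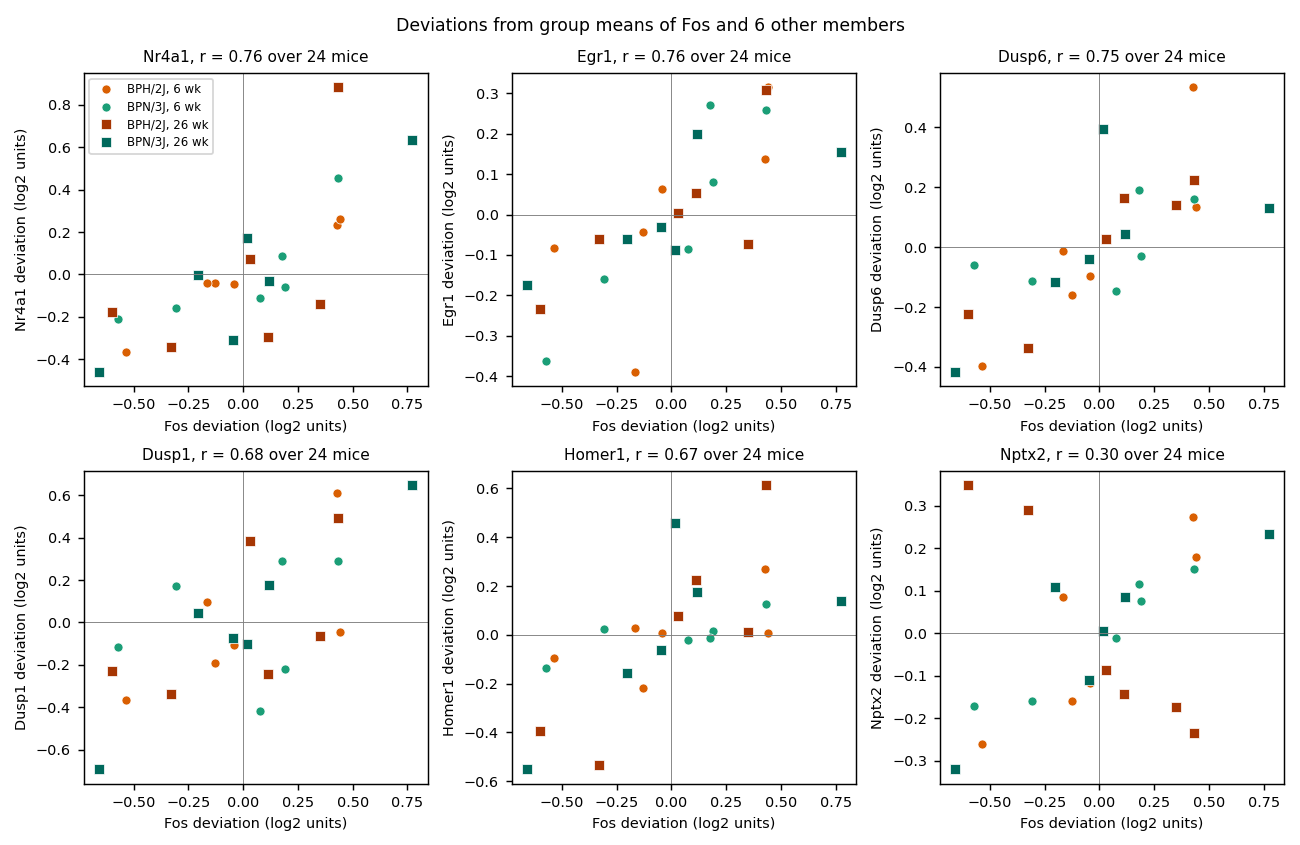
Deviations from group means of 6 members against that of Fos, both in log2 units, with 1 point per mouse and colours and shapes for the 4 groups. Nr4a1, Egr1, Dusp6, Dusp1 and Homer1 rise with Fos over the 24 mice, and Nptx2 rises with it in the 6-week groups but not in the 26-week BPH/2J mice.

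The correlations were also computed within each age. Within the 12 mice of 6 weeks, r with Fos was 0.89 for Nr4a1, 0.91 for Nr4a3, 0.89 for Nptx2, 0.81 for Egr1, 0.80 for Klf4 and 0.75 for Dusp6, and these 6 passed over the 34. Within the 12 mice of 26 weeks Btg2 (0.82), Dusp1 (0.81), Egr1 (0.77) and Crem (0.76) passed, and Nr4a1 (0.73), Dusp6 (0.76) and Homer1 (0.75) narrowly missed. Egr1 passed at both ages. Nptx2 had r = -0.10 at 26 weeks, made up of -0.97 in BPH/2J and 0.85 in BPN/3J, each over 6 mice. Differences between these correlations were not tested.

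Fewer members passed once the 2 sets of 26-week arrays were allowed for. With the means of the sets taken out, 4 members passed over the 34: Nptx2 (r = 0.77), Egr1 (0.73), Nr4a1 (0.68) and Egr2 (0.54), and 0 of 19936 genes passed in limma over all genes (11 of 34 members and 5.7% of genes at an unadjusted p under 0.05). Without the 2 arrays farthest from the median of Fos, 26-week BPN/3J replicates 1 and 5, r was 0.67 for Nr4a1, 0.78 for Egr1, 0.76 for Dusp6, 0.65 for Homer1, Nr4a3 and Klf4, 0.52 for Dusp1 and 0.46 for Crem. The last 2 no longer passed over the 34. Leaving out any 1 array ended no call for Dusp1, and ended that for Crem in 6 of 24 cases. Fos itself had r = 0.46 with the thalamus marker mean and 0.32 with the cortex and striatum mean, as a description over 24 mice.

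The genes outside the list that were closest to Fos over the 24 mice were Cplx3 (r = 0.83), Mad2l1bp (0.81), Utp25 (0.80), Foxo3 (0.78) and Hnrnpf (0.78). Among the 595 pairs of members the median r was 0.20, and 74.1% were above 0, against a median of 0.008 over pairs of every 50th gene. The highest pairs were Nr4a3 with Homer1 (0.87), Dusp6 with Homer1 (0.81) and Nr4a1 with Dusp1 (0.78), and the lowest was Btg2 with Dusp5 (-0.71). By role the median was 0.38 for the Egr genes, 0.34 for the growth-arrest and Ier genes, 0.30 for AP-1, 0.29 for the phosphatases and Sik1, 0.10 for the synaptic group and -0.06 for the 3 Nr4a genes, where Nr4a2 did not move with Nr4a1 and Nr4a3. All pairs share the same 24 arrays.

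**Figure D5:**
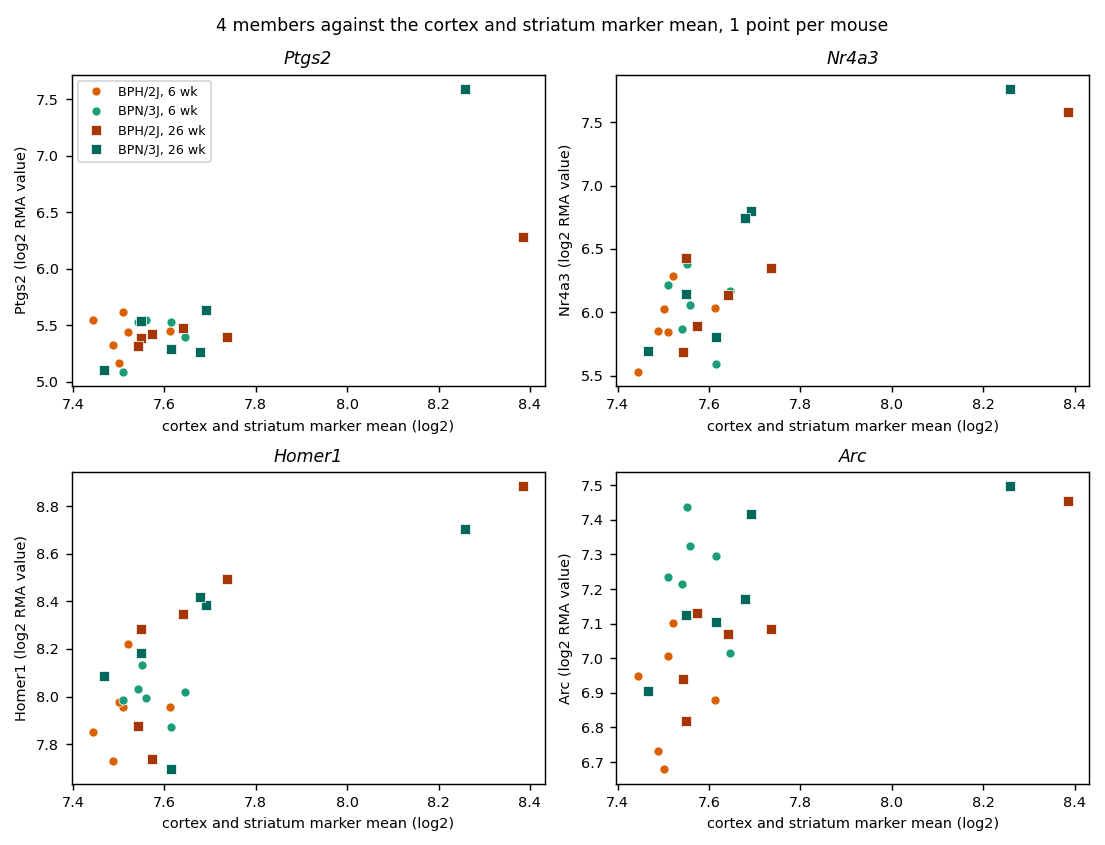
Log2 values of Ptgs2, Nr4a3, Homer1 and Arc in each mouse against the mean log2 value of the cortex and striatum markers, with colours and shapes for the 4 groups. The 2 mice at 8.26 and 8.39 on the horizontal axis hold the highest values of Ptgs2, Nr4a3, Homer1 and Arc.

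Some members moved with the tissue markers between mice. The pair of mice above stood apart in the cortex and striatum mean, so its correlations are given over the other 22 mice. There the r of the deviations was 0.52 for Nr4a3, 0.30 for Ptgs2, 0.43 for Homer1 and 0.34 for Arc. With the pair included it was 0.85, 0.83, 0.72 and 0.67, the highest of the members. Over the 22 mice the highest were Sik1 (0.65) and Btg2 (0.60). Over 24 mice Dusp6 (r = 0.68), Nptx2 (0.67) and Dusp1 (0.60) followed the thalamus mean. With the choroid plexus mean r was 0.68 for Nr4a3, 0.67 for Homer1, 0.56 for Sik1, 0.53 for Btg2 and -0.57 for Dusp5 over 24 mice, of which 5 were high in that mean. With the mean of the endothelium and mural markers r was 0.69 for Gadd45b and -0.62 for Nptx2. With the microglia mean it was 0.69 for Jund and 0.64 for Gadd45g. These are descriptions without a test, and the points share the arrays. With the cortex and striatum mean taken out of all deviations, 6 members passed with Fos over the 34, and 7 passed without the 2 arrays highest in it. With the thalamus mean taken out 9 passed: Dusp1 was lost (r = 0.56), and Sik1 (0.59) and Btg2 (0.57) were added. With the choroid plexus mean taken out 7 passed, and Crem was lost (r = 0.53).

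Other genes of the pathway were taken from lists of related genes. Between the strains 7.42% of all genes were called at 6 weeks (4.42% lower, 2.99% higher) and 2.67% at 26 weeks. The age comparisons called 16.9% of all genes in BPH/2J (8.23% up, 8.64% down) and 12.3% in BPN/3J (4.6% up, 7.66% down). Of 24 genes upstream of the members (kinases, CREB, SRF and MEF2 factors and coactivators), 4 were lower and 0 higher in BPH/2J at 6 weeks, among them Mef2a (-0.58), a calcium-dependent factor at immediate early promoters, and the kinases Camk4 (-0.38) and Camkk2 (-0.35). At 26 weeks 0 of 24 passed in limma (1 at an unadjusted p under 0.05). With age 7 rose and 3 fell in BPH/2J, and 3 rose and 3 fell in BPN/3J. Of 27 other rapidly induced genes, 1 was higher and 2 were lower at 6 weeks: Rgs2, a G-protein brake on vasoconstrictor signalling (0.52), Rasd1, a Ras-like protein induced by glucocorticoid (-0.92), and Ppp1r15a, a stress-induced phosphatase subunit (-0.27). At 26 weeks 0 of 27 passed (5 at an unadjusted p under 0.05), and with age 4 rose and 0 fell in BPH/2J and 3 rose and 2 fell in BPN/3J.

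Of 17 genes that activity induces later, 6 were called higher and 2 lower at 6 weeks, against 2.99% and 4.42% of all genes. Gal, the neuropeptide galanin, was 1.56 higher in BPH/2J at 6 weeks and 0.96 higher at 26 weeks, and Rgs4, a regulator of G-protein signalling, was -0.87 and -0.48. Nrn1, neuritin, was -0.71 at 6 weeks and did not pass at 26 weeks (-0.19). Gal and Rgs4 were the only genes of that list to pass at 26 weeks, against 2.67% of all genes. With age 3 rose and 7 fell in BPH/2J, against 8.23% and 8.64% of all genes. In BPN/3J 0 rose and 1 fell, against 4.6% and 7.66%. Of 14 corepressors and feedback genes, 1 passed at 6 weeks, Dusp7 (-0.22), and 0 at 26 weeks (0 at an unadjusted p under 0.05). With age 3 rose and 1 fell in BPH/2J, and 1 rose and 1 fell in BPN/3J, beside the same shares of all genes. For the interaction 0 genes of these lists were called in limma, against 0.0301% of all genes. At an unadjusted p under 0.05 they numbered 5, 5, 6 and 1 in the order given, against 10.8% of all genes. The thalamus markers moved with the 6-week comparison (12 of 16 called lower, 0 with a positive difference). They also moved with age in BPH/2J (13 of 16 called higher, 15 positive). The hypothalamus markers moved the other way. At 6 weeks 8 of 14 were called higher in BPH/2J (13 positive, median 0.68), and with age in BPH/2J 6 of 14 were called lower (1 positive). At 26 weeks 12 of 14 had a positive strain difference (median 0.18, 1 called). The part of both marker groups in these counts and in the genes named was not tested.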

How the data were processed

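RNA from 24 hypothalami was measured on Affymetrix Mouse Gene 1.0 ST arrays. For 34760 probe sets the authors deposited log2 values. The submitters' processing notes list RMA and limma, with the versions not given in the sources used here. RMA equalises the arrays, so differences are relative to the other genes. Values ran from 1.54 to 14.3. Precision is limited by the number of arrays. No detection call was used, and 2 members had an array at or below the median of the unnamed probe sets (4.60 to 5.25).

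Groups and replicate numbers came from the titles. The design text once names the normotensive strain BPN/2J, and the labels' BPN/3J was kept. Probe sets with 1 symbol in the platform annotation (21640, against 1321 with several and 11799 unnamed) gave 19937 genes, the highest mean deciding between probe sets of a gene. All 35 members matched RefSeq by Entrez identifier.

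limma 3.58.1 in R 4.3.3 was fitted with a mean per group over 24 arrays (20 residual degrees of freedom), in 5 contrasts, with Benjamini-Hochberg adjustment over all genes at 0.05. The code was tested on simulated data. Co-variation used deviations from group means. Same-numbered 26-week arrays deviated together (r 0.13 to 0.44 in all 6 pairs), and the own number was best in 3. The titles do not say that same-numbered mice were paired. Replicates 5 and 6 of both strains lie in the smaller set of 26-week arrays, so the block overlaps with the array sets. The blocked value is given beside 26-week results whose call it changes, as an alternative only. The other comparisons were not treated as paired (-0.23 to 0.05, 0.01 to 0.41 and -0.10 to 0.05 for the young strains, the BPH/2J ages and the BPN/3J ages). For the BPH/2J ages 4 of 6 pairs were over 0.1, and the own number was best in 3. The members, gene lists and rules were chosen with earlier results of these data known. Full values are given for each member that passed and for Fos, Junb, Egr1, Arc, Nr4a1, Bdnf and Dusp1; related genes named are up to 3 per list with the smallest p between strains; non-members near Fos are the 5 with the highest r. The array-set terms, the 26-week block, the choroid plexus covariate, the slope on Fos over all genes and the fits without the 2 cortex-high arrays were chosen after the data were seen.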

Additional observations from a re-analysis of the deposited data

Results flagged for a closer look

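A value was marked where its gap to the nearest mouse of its group, over the range of the group, exceeded Dixon's critical value for 6 samples. Of 140 sets of 6 values, 11 were marked, and chance marks about 1 in 20, or 7. In the 26-week BPH/2J mice, replicate 3 was high in Nr4a1 (8.40; next 7.59), Ptgs2 (6.28; next 5.47) and Fosl2 (7.06; next 6.74), and replicate 6 was low in Ier5 (6.43; next 6.79). In the 26-week BPN/3J mice, replicate 4 was high in Ptgs2 (7.59; next 5.63) and replicate 6 low in Jund (8.26; next 8.59). Replicate 3 of BPH/2J and replicate 4 of BPN/3J are the mice with the cortex and striatum marker means of 8.39 and 8.26. In the 6-week BPH/2J mice, replicate 6 was high in Maff (5.46) and Egr4 (6.89) and low in Rheb (10.07), and replicate 3 was low in Ier5 (6.32). In the 6-week BPN/3J mice, replicate 2 was low in Ptgs2 (5.09). No member passed for a strain difference that depended on age.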

How the results depend on the processing

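No call among the members changed direction in any alternative. Counts of members called moved as follows, with the share of all genes called in the same fit in brackets. At 6 weeks the strain count of 2 (7.42%) was 4 with only the compared groups in the fit (11.6%), 9 with array weights (18.7%) and 0 with the thalamus covariate (0.732%). At 26 weeks the count of 1 (2.67%) was 0 with only the compared groups (1.24%), 2 with the array-set term (4.87%, or 4.42% with BPN/3J replicate 3 moved), 2 with the choroid plexus covariate (2.76%) and 3 with same-numbered 26-week arrays as a block (4.81%). The interaction count of 0 (0.0301%) was 1 with the replicate block over all groups (0.135%), among genes with a mean of at least 6 (0.707%), after re-centring (0.0351%) and with robust limma (0.155%). It was 2 with array weights (3.43%), the array-set term (1.83%, or 1.26% with replicate 3 moved) and the 26-week block (0.697%). For age in BPH/2J the count of 3 (16.9%) was 12 with array weights (37.5%) and 0 with the thalamus covariate (0.0351%). For age in BPN/3J the count of 4 (12.3%) was 13 with array weights (32.2%), 2 with the cortex and striatum covariate (6.53%) and 0 with the choroid plexus covariate (0.722%). The members correlated with Fos numbered 8, but 4 in the 26-week mice, 3 in BPH/2J, 3 in BPN/3J, and 4 or 3 with the array sets taken out. The cause was not tested.

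Leaving out 1 array gave 1 to 3 members at 6 weeks (1 without BPH/2J replicates 3, 5 or 6 or BPN/3J replicates 3 or 5), 1 to 3 at 26 weeks (3 without BPN/3J replicate 1, and 2 if BPN/3J replicate 2 or BPH/2J replicate 6 was left out), and 0 to 2 for the interaction (2 without 6-week BPH/2J replicate 2). It gave 3 to 5 for age in BPH/2J (5 without 26-week replicate 6), 1 to 7 for age in BPN/3J (1 or 2 without 26-week replicates 1, 2 or 4 or 6-week replicate 2, 7 without 26-week replicate 6) and 6 to 10 for Fos. The replicate block over all groups gave 2, 1, 1, 4 and 5 members in the 5 contrasts and 6 with Fos. It ended no call in the group comparisons and added Ier3 for the interaction, Ier2 for age in BPH/2J and Crem for age in BPN/3J.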
